A study of Mus musculus with 43 samples.

Results

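The 37 genes described here take up glucose, break it down to lactate, export the lactate, or respond to low oxygen. They are 37 of the 46683 gene symbols in the expression tables of a study of the DEAD-box RNA helicase DDX18 in mouse cells. They were selected with expression results of these samples known: Slc16a3, Bnip3 and Tpi1 were the members with the lowest values after Ddx18 knockdown in embryonic stem cells (ESCs) relative to control cells, so that comparison is given as a description, without a test. The set holds 4 transporters, 17 enzymes of the path from glucose to lactate, 3 regulatory enzymes and 13 hypoxia-response genes.

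Glycolysis splits glucose into pyruvate in the cytoplasm, and lactate dehydrogenase reduces the pyruvate to lactate, which leaves the cell through monocarboxylate transporters. Mouse ESCs grown in serum with leukaemia inhibitory factor use this route heavily. Hypoxia-inducible factor (HIF) is a transcription factor whose alpha subunit is destroyed in the presence of oxygen after prolyl hydroxylases of the EGLN family mark it. When it persists, it binds DNA sites with the core ACGTG or GCGTG and raises transcription of many glycolytic genes and of genes such as Bnip3, Vegfa and Egln3.

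RNA of 37 libraries in 17 groups was sequenced after poly(A) selection, and expression was given as FPKM (fragments per kilobase of transcript, scaled to the mapped fragments of the library). The cells were CJ9 mouse ESCs of strain 129S1/SVImJ in a medium with serum and leukaemia inhibitory factor, or p53 KO or EZH2 KO mouse ESCs, and the embryos were E3.5 embryos of strain C57/B6 from DDX18 heterozygous mothers. The groups were Ddx18 knockdown and control ESCs (2 libraries each), Ddx18 knockdown and control in EZH2 KO ESCs (2 each) and in p53 KO ESCs (2 each), and Ddx18 knockout and wild-type E3.5 embryos (2 each). Further groups were ESCs with actinomycin D (ActD) at 0, 5 and 10 ng/ml (3, 2 and 2 libraries), p53 KO ESCs with ActD at 10 and 0 ng/ml (2 each), ESCs with CX-5461 at 1 and 0 µM (3 each), and ESCs with cycloheximide (CHX) at 10 and 0 µM (2 each). ActD at low doses and CX-5461 inhibit ribosomal RNA synthesis by RNA polymerase I, and CHX inhibits translation elongation. In both knockdown tables of KO cells the control libraries carry the gene deletion too. The labels do not give the knockdown method, the treatment times, the number of clones or the number of embryos per library, and nothing says that libraries of a group came from separate cultures. The p-values below therefore measure the spread between these libraries, which may be technical.

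Ddx18 had 9.94 and 8.52 FPKM in knockdown ESCs, against 84.6 and 89.1 FPKM in control ESCs. It averaged 16.5 ± 1.37 FPKM in knockdown and 86.0 ± 4.88 FPKM in control EZH2 KO ESCs (SD, n = 2 each), 3.47 and 43.3 FPKM in knockdown and control p53 KO ESCs, and 2.91 and 16.5 FPKM in knockout and wild-type embryos, and was lower in each (limma adjusted p of 0.00183, 0.0481 and 0.0449). Ezh2 averaged 3.30 FPKM in the EZH2 KO knockdown and 3.52 FPKM in the EZH2 KO control libraries. Trp53 mRNA was present in the p53 KO tables at group means of 97.9 to 227 FPKM, and since the deleted part is not given, it checks nothing. Mapped reads were deposited for 19 libraries and ran between 7112852 and 22983179. The depth of the other 18 libraries is unknown. FPKM of the same gene differed widely between tables, with Gapdh at means of 1089.6 FPKM in control ESCs, 6099 FPKM in control EZH2 KO ESCs and 53.4 FPKM in the untreated cells of the CX-5461 table. Levels are therefore compared within a table.

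Promoter sequence was looked up because HIF sites are defined by short DNA words. RefSeq promoters on GRCm38.p6, running 250 bases before to 50 bases after the gene start farthest upstream, matched 33 of the 37 genes, and Slc2a3, Bnip3l, Ndrg1 and Ero1l had no entry. ACGTG or GCGTG on either strand occurred in 26 of the 33 promoters (78.8%), against 43.8% of 27025 promoters of all genes. ACGTG alone occurred in 20 (60.6%), against 19.6%, and GCGTG alone in 19 (57.6%), against 32.5%. The members' promoters were also richer in G and C, with a median of 65.0%, against 52.7%, and the share of the words was not adjusted for this. Among the 14 members with an entry that were called lower in at least 5 of the 8 tested comparisons, 10 promoters (71.4%) held either word, against 16 of the other 19 (84.2%). A word is a match of letters and not a shown binding site.

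Promoters follow for Slc16a3, Bnip3 and Tpi1 and for the 4 other members called lower in the most comparisons, Pkm, Pfkp, Eno1 and Ldha. Capitals mark ACGTG or GCGTG, or CACGT or CACGC where the word lies on the other strand. CACGTG holds ACGTG on both strands and is marked once. Slc16a3, at chr11:120948817-120949116 on the plus strand, codes for the lactate exporter MCT4, and its promoter held 2 ACGTG words.
Slc16a3: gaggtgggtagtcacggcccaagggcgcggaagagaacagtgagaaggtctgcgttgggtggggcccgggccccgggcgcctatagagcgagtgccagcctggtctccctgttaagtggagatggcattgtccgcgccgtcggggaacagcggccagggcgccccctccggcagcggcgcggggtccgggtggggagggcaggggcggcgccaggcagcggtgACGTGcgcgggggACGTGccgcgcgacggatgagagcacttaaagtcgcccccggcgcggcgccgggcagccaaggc
Bnip3, at chr7:138909457-138909756 on the minus strand, codes for a mitophagy receptor, and its promoter held 1 CACGTG and 3 GCGTG words.
Bnip3: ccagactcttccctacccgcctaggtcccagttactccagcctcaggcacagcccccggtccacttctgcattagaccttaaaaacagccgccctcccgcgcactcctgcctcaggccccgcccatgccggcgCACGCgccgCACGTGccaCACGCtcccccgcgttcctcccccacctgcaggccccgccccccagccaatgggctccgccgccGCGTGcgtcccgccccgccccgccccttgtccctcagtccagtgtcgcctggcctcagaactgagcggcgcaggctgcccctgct
The promoter of Ldha, the lactate dehydrogenase A subunit, at chr7:46845554-46845853 on the plus strand, held 2 CACGTG, 1 further ACGTG and 2 GCGTG words.
Ldha: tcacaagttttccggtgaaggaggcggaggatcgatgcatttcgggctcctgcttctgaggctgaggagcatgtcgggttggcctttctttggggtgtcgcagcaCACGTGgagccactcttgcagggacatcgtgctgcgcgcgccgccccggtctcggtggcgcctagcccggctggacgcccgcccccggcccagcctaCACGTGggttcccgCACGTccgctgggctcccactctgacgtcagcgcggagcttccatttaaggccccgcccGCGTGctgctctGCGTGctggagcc
The promoter of Pfkp, the platelet-type phosphofructokinase, at chr13:6648722-6649021 on the minus strand, held 4 GCGTG words and no ACGTG.
Pfkp: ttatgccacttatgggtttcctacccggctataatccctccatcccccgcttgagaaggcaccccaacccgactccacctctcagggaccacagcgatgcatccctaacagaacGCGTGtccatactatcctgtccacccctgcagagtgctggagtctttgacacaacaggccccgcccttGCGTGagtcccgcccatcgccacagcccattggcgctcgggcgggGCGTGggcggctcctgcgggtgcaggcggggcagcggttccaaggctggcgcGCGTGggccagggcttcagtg
Eno1, alpha-enolase, at chr4:150236458-150236757 on the plus strand, had 2 GCGTG words.
Eno1: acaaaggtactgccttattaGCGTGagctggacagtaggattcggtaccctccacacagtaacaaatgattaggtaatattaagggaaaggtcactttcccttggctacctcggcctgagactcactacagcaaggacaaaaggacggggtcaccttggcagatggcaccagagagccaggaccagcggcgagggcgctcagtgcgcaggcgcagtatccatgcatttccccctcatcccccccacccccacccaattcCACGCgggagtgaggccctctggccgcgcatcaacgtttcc
The windows of Tpi1 (triosephosphate isomerase, chr6:124814109-124814408, minus strand) and Pkm (pyruvate kinase M, chr9:59656326-59656625, plus strand) held neither word, which says only that these letters are not in these 300 bases.
Tpi1: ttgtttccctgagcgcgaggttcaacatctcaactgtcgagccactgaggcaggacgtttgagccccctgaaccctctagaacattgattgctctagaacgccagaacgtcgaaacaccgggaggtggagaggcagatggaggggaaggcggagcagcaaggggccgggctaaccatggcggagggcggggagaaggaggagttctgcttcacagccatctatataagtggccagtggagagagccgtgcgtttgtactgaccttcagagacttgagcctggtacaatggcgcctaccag
Pkm: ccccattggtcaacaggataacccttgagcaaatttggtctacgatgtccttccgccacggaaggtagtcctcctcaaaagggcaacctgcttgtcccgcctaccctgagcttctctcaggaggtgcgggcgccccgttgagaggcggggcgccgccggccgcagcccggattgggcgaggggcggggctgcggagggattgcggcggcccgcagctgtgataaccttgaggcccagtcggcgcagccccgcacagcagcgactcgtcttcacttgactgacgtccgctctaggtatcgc

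The knockdown in wild-type ESCs was described over 29 members, because its table lists 4769 genes that its authors had selected by a rule not given in the sources used here. Slc2a3, Pfkfb3, Pfkfb4, Eno2, Ldhb, Egln1, P4ha1 and Hif1a were not among the listed genes. Of the 29, 27 were lower in both knockdown libraries than in both control libraries, and 2 were higher (P4ha2 and Ddit4). By the sign of the mean difference alone, 27 of the 29 members (93.1%) were lower and 2 higher. By that measure 43.4% of all listed genes were lower and 56.6% higher. How many of all listed genes had groups without overlap was not counted. The median difference on the log2(FPKM + 1) scale was −0.95 over the 29 members and 0.30 over all listed genes. In bulk RNA, fewer cells of a type and less RNA per cell cannot be told apart, here and in every comparison below.

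Among the transporters, Slc16a3 had 3.75 and 2.93 FPKM in knockdown ESCs, against 44.6 and 44.0 FPKM in control ESCs. It had the third-lowest difference of the 4769 genes (−3.39). Slc16a1, the lactate and pyruvate transporter MCT1, had 8.75 and 7.45 FPKM in knockdown and 15.8 and 17.3 FPKM in control ESCs. Slc2a1, the glucose transporter GLUT1, had 98.3 and 81.5 FPKM in knockdown and 142 and 144 FPKM in control ESCs. Both transporters differed less than Slc16a3.

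All 15 listed enzymes were lower with knockdown, by between −0.38 for Gapdh and −2.60 for Tpi1 on the log2(FPKM + 1) scale. Tpi1 had 30.7 and 35.2 FPKM in knockdown ESCs, against 202 and 207 FPKM in control ESCs. Ldha had 109 and 102 FPKM in knockdown ESCs, against 515 and 531 FPKM in control ESCs. Isozymes of a step differed among themselves. The aldolase gene Aldoc had 0.835 and 1.53 FPKM in knockdown and 7.73 and 6.85 FPKM in control ESCs, and the more abundant Aldoa had 254 and 277 FPKM in knockdown and 804 and 799.9 FPKM in control ESCs. Of the phosphofructokinases, which commit sugar to glycolysis, Pfkp was at −1.76, Pfkl at −1.31 and Pfkm at −0.57, while the hexokinases Hk2 and Hk1, which trap glucose in the cell, were at −0.56 and −0.49.

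Pdk1, a kinase that inhibits pyruvate dehydrogenase, had 7.86 and 7.08 FPKM in knockdown and 17.6 and 18.1 FPKM in control ESCs. Of the 10 listed hypoxia-response genes 8 were lower. Bnip3 had 1.03 and 1.47 FPKM in knockdown ESCs, against 16.2 and 17.8 FPKM in control ESCs. Egln3, an oxygen-dependent prolyl hydroxylase of HIF that is itself a HIF target, had 1.63 and 1.13 FPKM in knockdown and 7.18 and 5.34 FPKM in control ESCs. The differences of these 2 genes were −3.01 and −1.61, and that of Vegfa, an angiogenic growth factor, was −0.57. Ddit4, a stress-induced inhibitor of mTOR signalling, ran the other way with 78.8 and 67.6 FPKM in knockdown and 32.5 and 33.6 FPKM in control ESCs.

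**Figure D1:**
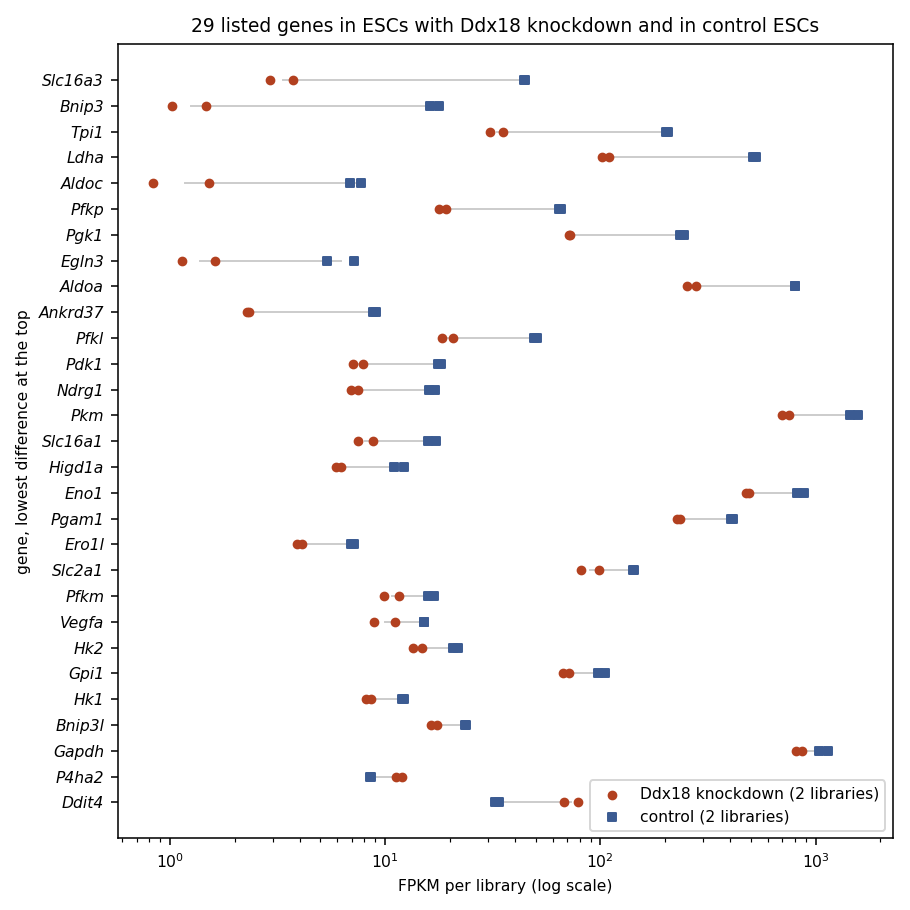
FPKM on a log axis of the 29 listed members in each Ddx18 knockdown library (circles) and each control library (squares) of ESCs, ordered by difference, with a line joining the group means. 27 genes lie lower in both knockdown libraries, from Slc16a3 at the top to Gapdh, and P4ha2 and Ddit4 at the bottom lie higher.

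In EZH2 KO ESCs, deleted for EZH2, a histone methyltransferase of a Polycomb repressive complex, Ddx18 knockdown lowered 12 members and raised 3 of the 37, all of which were tested. Over all 11773 genes tested, 2.18% were called lower and 6.30% higher. The median change was −0.33 over the members and 0.09 over all genes. Changes are on the log2(FPKM + 1) scale and a call is a limma adjusted p under 0.05. After rescaling each library to the median ratio of its table, 14 members were called lower and 2 higher, and of all genes 560 were called lower and 611 higher, against 257 and 742 as deposited.

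Slc16a3 fell to 18.0 and 13.2 FPKM in EZH2 KO knockdown ESCs, against 51.0 and 50.9 FPKM in EZH2 KO control ESCs, a change of −1.66 ± 0.16 (SE, adjusted p = 0.00643). Slc2a1 fell (−0.42 ± 0.09, adjusted p = 0.0393) while the neuronal-type glucose transporter gene Slc2a3 rose (0.43 ± 0.09, adjusted p = 0.0381). Rescaled, Slc2a3 no longer passed (0.31, adjusted p = 0.0824). Of the 17 enzymes, 9 fell and 1 rose. Ldha fell to 159 and 143 FPKM in EZH2 KO knockdown ESCs, against 375 and 403 FPKM in EZH2 KO control ESCs (−1.36 ± 0.10, adjusted p = 0.00367). Tpi1 fell to 69.5 and 76.8 FPKM, against 174 and 175 FPKM in control cells (−1.25 ± 0.09, adjusted p = 0.00423). Neither gene's groups overlapped, and of all members 23 lay below and 8 above both control libraries. Over all genes such shares were not counted, here or in the comparisons below. Pfkp (−0.99), Pkm (−0.81), Aldoa (−0.74), Pgk1 (−0.65), Pfkl (−0.57), Eno1 (−0.53) and Pgam1 (−0.48) also fell. Ldhb, the lactate dehydrogenase subunit of oxidative tissues, was the enzyme that rose, with means of 98.6 ± 5.35 FPKM in EZH2 KO knockdown and 67.9 ± 3.90 FPKM in EZH2 KO control ESCs (SD, n = 2 each). Gapdh, with 4577 and 4899 FPKM in EZH2 KO knockdown and 6427 and 5770 FPKM in EZH2 KO control ESCs, did not pass (adjusted p = 0.0926), nor did Hk2 (−0.15) and Gpi1 (−0.23). After rescaling, Gapdh (−0.48, adjusted p = 0.032) and Gpi1 (−0.35, adjusted p = 0.0471) were called lower and Hk2 was not.

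Of 13 hypoxia-response genes 2 were called. Egln3 fell, with 0.981 and 1.27 FPKM in EZH2 KO knockdown and 3.15 and 5.13 FPKM in EZH2 KO control ESCs (adjusted p = 0.0427), and Ddit4 rose, with 57.9 and 53 FPKM in EZH2 KO knockdown and 30.2 and 29.2 FPKM in EZH2 KO control ESCs (0.88 ± 0.11, adjusted p = 0.0112). Bnip3 was at 2.23 and 0.825 FPKM with knockdown and 3.52 and 3.09 FPKM in controls, and did not pass (adjusted p = 0.161). Pdk1 was at 18.5 and 19.7 FPKM with knockdown and 19.3 and 19.8 FPKM in controls, and its groups overlapped. Vegfa (−0.32) and Hif1a (0.16), the gene of the HIF alpha subunit, did not pass. Trophectoderm markers summed to 121 to 127 FPKM with knockdown and 45.8 to 58.8 FPKM in controls, with 4 of 8 tested called higher, and their part in the members' changes was not tested. With any 1 of the 4 libraries left out, no member was called by limma (17 to 20 at an unadjusted p under 0.05).

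In p53 KO ESCs, Ddx18 knockdown lowered 4 members (Ldha, Slc16a3, Pdk1 and Tpi1) and raised 1 (Slc2a3) of 36 tested, and Ero1l was too low to be tested. Of all 11636 genes tested, 0.636% were called lower and 2.63% higher. The median change was −0.32 over the members and 0.34 over all genes. As deposited, 306 of all genes were called higher and 74 lower. With each library rescaled, the median of all genes was 0.00, 31 genes were called higher and 120 lower, and 5 members were called lower and 1 higher.

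Slc16a3 fell to 11.8 and 9.46 FPKM in p53 KO knockdown ESCs, against 42.3 and 39.7 FPKM in p53 KO control ESCs (−1.86 ± 0.21, adjusted p = 0.0481). Ldha fell to 107 and 67.4 FPKM, against 288 and 359 FPKM in control cells (−1.91 ± 0.27, adjusted p = 0.0481). Pdk1 fell to 5.65 and 3.58 FPKM, against 16.6 and 20.5 FPKM in control cells (−1.82 ± 0.28, adjusted p = 0.0481). These 3 genes lay below every control library. Of all members, Tpi1 included, 17 did so, and 9 lay above every control library. Tpi1 was at 134 and 103 FPKM in p53 KO knockdown and 285 and 244 FPKM in p53 KO control ESCs, just past the threshold (adjusted p = 0.0498). Slc2a3 rose to 499 and 374 FPKM in p53 KO knockdown ESCs, against 94.9 and 106 FPKM in p53 KO control ESCs (2.10 ± 0.21, adjusted p = 0.0481).

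Pkm, at 1186 and 826 FPKM with knockdown and 2084 and 1750 FPKM in controls, did not pass (adjusted p = 0.0741), nor did Hk2 (−0.53, adjusted p = 0.179), Bnip3 (−1.12, adjusted p = 0.203) or Hif1a (1.06, adjusted p = 0.060). Gapdh overlapped between groups, with 6430 and 5512 FPKM in knockdown and 6160 and 5429 FPKM in control cells, as did Slc2a1 and Egln3. Libraries of the same group lay far apart in both groups for Pgk1, phosphoglycerate kinase, with 32.7 and 7.68 FPKM in knockdown and 10.6 and 98.1 FPKM in control cells, and for Vegfa, with 45.6 and 7.87 FPKM in knockdown and 12.2 and 21.4 FPKM in control cells. Fibroblast markers summed to 8.64 to 8.90 FPKM with knockdown and 26.5 to 26.9 FPKM in controls, 4 of 10 being at 0 in both libraries of each group. Trophectoderm markers summed to 187 to 228 FPKM with knockdown and 111 to 127 FPKM in controls, but only 1 of 9 tested was called higher. The median change of these markers was 0.24, against 0.34 over all genes. Their part in the result was not tested. Leaving out any 1 library ended all calls among the members here too (8 to 19 at an unadjusted p under 0.05).

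The difference between both knockdown effects, EZH2 KO minus p53 KO, was called for 3 of 37 members, while over all 12790 genes tested 0.657% were called higher and 0.735% lower (84 and 94 genes, and 145 and 30 rescaled). Deleted gene, cell line and table coincide here and cannot be told apart. The signed change was higher in EZH2 KO cells for Pdk1 (1.78 ± 0.30, adjusted p = 0.0455) and Ddit4 (1.78 ± 0.21, adjusted p = 0.0291). It was lower there for Slc2a3 (−1.67 ± 0.23, adjusted p = 0.0329). A higher signed change can be a smaller fall, as it was for Pdk1. With 1 library left out, 0 to 4 members were called, and with no filter or with the replicate block 0 (6 and 7 at an unadjusted p under 0.05 by limma). For Slc16a3 (0.20 ± 0.26) and Tpi1 (−0.08 ± 0.23) the difference did not pass, and after rescaling that of Tpi1 was 0.21.

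In E3.5 embryos 20 of the 37 members reached the level needed for testing. Pkm and Eno1 were called lower and Bnip3 higher in Ddx18 knockout embryos, against 4.55% lower and 0.633% higher among all 8687 genes tested. The median change was −0.79 over the tested members and −0.31 over all genes, and after rescaling, which left 83 of all genes lower and 41 higher, against 395 and 55 as deposited, Bnip3 was the 1 member called. Pkm was at 1.78 and 2.13 FPKM in knockout and 11.2 and 15.0 FPKM in wild-type embryos (−2.24 ± 0.36, adjusted p = 0.0318, and 0.0639 rescaled). Eno1 was at 0.436 and 0.660 FPKM in knockout and 4.52 and 6.30 FPKM in wild-type embryos (−2.04 ± 0.37, adjusted p = 0.0401). Bnip3 was at 195 and 312 FPKM in knockout and 94.7 and 71.2 FPKM in wild-type embryos (1.57 ± 0.30, adjusted p = 0.044), so it was the member with the highest level in the embryos, and it lay on the other side of its reference than in the ESC knockdown.

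Some genes that every cell uses were listed at or near 0 in the embryos, so the values are given as listed for each library. Gapdh was listed at 0.248 and 0 FPKM in knockout and 2.40 and 2.14 FPKM in wild-type embryos. Aldoa had 19.1 and 15.0 FPKM in knockout and 30.6 and 29.5 FPKM in wild-type embryos, and Hk2 had 12.0 and 8.47 FPKM in knockout and 18.3 and 27.7 FPKM in wild-type embryos. Both lay lower in knockout without passing the test (adjusted p of 0.14 and 0.115). Slc16a3 was listed at 0 in all 4 embryo libraries. Ldha had 0 and 0.810 FPKM in knockout and 0.231 and 0 FPKM in wild-type embryos, and Egln3 had 0 and 4.32 FPKM in knockout and 0 in both wild-type libraries. Tpi1 (−1.02), Pgk1 (−1.52), Slc2a1 (−1.32) and Hif1a (−0.79) did not pass. Trophectoderm markers summed to 54.3 to 70.8 FPKM in knockout and 209.9 to 215 FPKM in wild-type embryos, with 2 of 7 tested called lower. Markers of ESCs and inner cell mass summed to 1264 to 2056 FPKM in knockout and 2517 to 3339 FPKM in wild-type embryos, with 1 of 10 tested called lower. Their part in the members' differences was not tested, and with any 1 embryo library left out no member was called by limma (5 to 10 at an unadjusted p under 0.05).

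**Figure D2:**
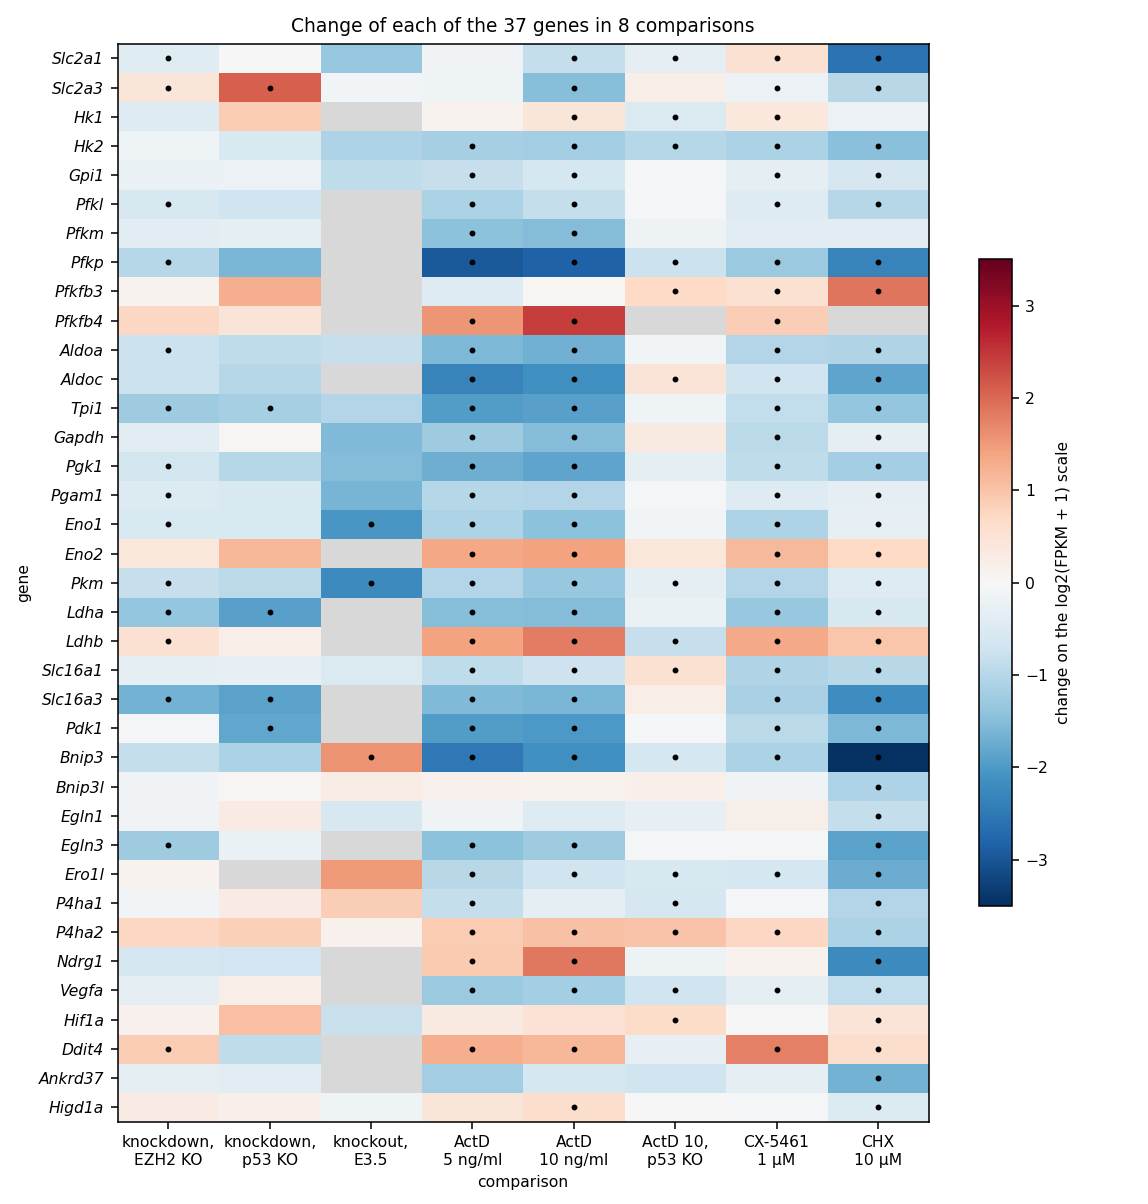
Change of each of the 37 members (rows) on the log2(FPKM + 1) scale in the 8 tested comparisons (columns), blue lower and red higher, with a dot where the limma adjusted p was under 0.05 and grey where the gene was not tested. Pkm was called lower in 7 comparisons, and Pfkp, Tpi1, Eno1, Ldha and Slc16a3 in 6 each, while Ldhb and Ddit4 were called higher in 5 each.

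In ESCs with ActD, 22 of 37 members fell and 6 rose at 5 ng/ml, and 23 fell and 8 rose at 10 ng/ml. Among all 14522 genes tested, 16.1% were lower and 32.9% higher at 5 ng/ml, and 20.0% were lower and 36.4% higher at 10 ng/ml. The median change of the members was −1.0 at 5 ng/ml and −0.84 at 10 ng/ml, against 0.24 and 0.25 over all genes. The doses share their untreated libraries. Rescaled, 23 members were lower and 6 higher at 5 ng/ml (3036 and 3923 of all genes, against 2338 and 4774 as deposited). At 10 ng/ml 24 were lower and 8 higher rescaled (3490 and 4471 of all genes, against 2905 and 5280 as deposited).

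Of the 17 enzymes, 14 fell at each dose. Pfkp was at 65.5, 65.8 and 68.7 FPKM in untreated ESCs, 7.31 and 8.26 FPKM at 5 ng/ml and 8.61 and 8.52 FPKM at 10 ng/ml, with changes of −2.95 ± 0.08 and −2.82 ± 0.08 (adjusted p of 8.21e-06 and 4.7e-06). Tpi1 was at 245, 173 and 192 FPKM in untreated ESCs, 49.8 and 52.6 FPKM at 5 ng/ml and 54.0 and 53.1 FPKM at 10 ng/ml (changes of −1.96 and −1.89). Ldha was at 514, 464 and 467 FPKM without ActD, 165 and 178 FPKM at 5 ng/ml and 178 and 159 FPKM at 10 ng/ml (−1.49 and −1.51). Treated and untreated libraries of these 3 genes did not overlap, and both doses gave about the same level. At 5 ng/ml 24 members lay below and 9 above all untreated libraries, and at 10 ng/ml 25 and 9. Aldoc (−2.34 and −2.14), Pgk1 (−1.72 and −1.85), Aldoa (−1.58 and −1.68), Gapdh (−1.25 and −1.51), Pkm (−1.03 and −1.32) and Hk2 (−1.15 and −1.21) fell at both doses. Ldhb rose, averaging 34.6 ± 6.95 FPKM untreated (n = 3), 93.1 ± 6.71 FPKM at 5 ng/ml and 121 ± 2.47 FPKM at 10 ng/ml (SD, n = 2 each), and so did the neuronal enolase gene Eno2 (1.36 and 1.4).

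Slc16a3 was at 27.5, 31.6 and 31.3 FPKM in untreated ESCs, 8.33 and 11 FPKM at 5 ng/ml and 9.19 and 9.28 FPKM at 10 ng/ml (−1.55 and −1.60, both past the threshold). The glucose transporters separated the doses. Slc2a3 had 149, 177 and 178 FPKM untreated, 156 and 148 FPKM at 5 ng/ml and 63.1 and 55.6 FPKM at 10 ng/ml, and Slc2a1 had 109, 92.4 and 94.3 FPKM untreated, 87.8 and 91.4 FPKM at 5 ng/ml and 57.3 and 52.3 FPKM at 10 ng/ml. Both were called lower at 10 ng/ml and not at 5 ng/ml, and the difference of the doses itself passed (−1.34 ± 0.11, adjusted p = 0.0122 for Slc2a3, and −0.70 ± 0.10, adjusted p = 0.0286 for Slc2a1). The only other member with a called dose difference was Ndrg1 (0.93 ± 0.10, adjusted p = 0.02), which averaged 11.4 ± 0.820 FPKM untreated, 22.5 ± 0.304 FPKM at 5 ng/ml and 43.8 ± 3.07 FPKM at 10 ng/ml. Over all genes 1.47% were higher and 1.47% lower at 10 than at 5 ng/ml. The count of 3 rested on single libraries: it was 0 (4 to 8 at an unadjusted p under 0.05) without either library at 5 ng/ml or 1 of those at 10 ng/ml, 1 without the other library at 10 ng/ml or either of 2 untreated libraries, and 10 without the remaining untreated library.

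Pdk1 was at 24.6, 22.2 and 20.6 FPKM untreated, 5.16 and 4.88 FPKM at 5 ng/ml and 4.51 and 5.03 FPKM at 10 ng/ml (−1.96 and −2.02). Pfkfb4, an enzyme that makes and removes the allosteric activator of phosphofructokinase, rose, with 1.77, 0.35 and 0.501 FPKM untreated, 4.10 and 4.33 FPKM at 5 ng/ml and 8.15 and 8.73 FPKM at 10 ng/ml (1.55 and 2.41). The hypoxia-response genes split. Bnip3 was at 16.2, 14.7 and 16.4 FPKM untreated, 2.00 and 1.93 FPKM at 5 ng/ml and 3.07 and 2.49 FPKM at 10 ng/ml, and fell by 2.50 and 2.15 on the log2 scale. Egln3 (−1.43 and −1.25), Vegfa (−1.30 and −1.2) and Ero1l (−0.97 and −0.69), an oxidase that makes disulfide bonds in the endoplasmic reticulum, fell. Ddit4 (1.27 and 1.16), Ndrg1 and the collagen prolyl hydroxylase gene P4ha2 (0.89 and 1.02) rose. Hif1a, at 20.4, 10.5 and 9.99 FPKM untreated, 16.1 and 16.7 FPKM at 5 ng/ml and 18.2 and 19.5 FPKM at 10 ng/ml, overlapped and did not pass, and neither did the mitophagy receptor gene Bnip3l (0.12 at 10 ng/ml, and −0.04 rescaled).

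Cell type markers moved with ActD. The 10 markers of ESCs and inner cell mass summed to 2759 to 3014 FPKM untreated, 656 to 661 FPKM at 5 ng/ml and 390.4 to 392 FPKM at 10 ng/ml. The 10 trophectoderm markers summed to 42.4 to 71.4 FPKM untreated, 916 to 923 FPKM at 5 ng/ml and 689 to 714 FPKM at 10 ng/ml, with 1 marker at 0 in all untreated libraries. Their part in the members' changes was not tested.

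In p53 KO ESCs ActD at 10 ng/ml lowered 10 and raised 5 of 36 tested members, against 4.33% lower and 32.7% higher among all 13145 genes tested. The median change was −0.13 over the members and 0.35 over all genes. Rescaled, with the median of all genes at 0.00, 22 members were lower and 1 higher, and 1751 of all genes were lower and 1320 higher, against 569 and 4301 as deposited. Tpi1 had 248 and 237 FPKM in treated p53 KO ESCs and 251 and 287 FPKM in untreated p53 KO ESCs (−0.14 ± 0.10, adjusted p = 0.278, and −0.56, adjusted p = 0.00774, rescaled). Slc16a3 had 58.9 and 49.8 FPKM in treated and 47.0 and 44.2 FPKM in untreated p53 KO ESCs (0.24, adjusted p = 0.138, and −0.16 rescaled), and Ldha had 564 and 548 FPKM in treated and 634 and 679 FPKM in untreated p53 KO ESCs (−0.24, adjusted p = 0.0781). Of these genes only Slc16a3 lay higher in treated cells.

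Among members that passed, Hk2 fell to 16 and 13.3 FPKM in treated p53 KO ESCs, against 28.6 and 32.1 FPKM in untreated p53 KO ESCs (−1.01 ± 0.13, adjusted p = 0.00669). Pfkp fell to 44.7 and 44.4 FPKM, against 68.0 and 83.5 FPKM in untreated cells (−0.75 ± 0.12, adjusted p = 0.0104). Bnip3 fell to 33.6 and 39.7 FPKM, against 51.0 and 62.7 FPKM in untreated cells (−0.62, adjusted p = 0.0238), and Vegfa (−0.71), Slc2a1 (−0.35), Pkm (−0.34) and Ldhb (−0.79) fell. P4ha2 (0.99), Pfkfb3 (0.69, a partner of Pfkfb4 in function), Hif1a (0.63), Slc16a1 (0.54) and Aldoc (0.46) rose. Gapdh (0.30), Pgk1 (−0.33), Pdk1 (−0.06), Egln3 (−0.08) and Aldoa (−0.10) did not pass. Without any 1 of the 4 libraries, no member was called by limma (13 to 16 at an unadjusted p under 0.05).

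The effect of ActD at 10 ng/ml in p53 KO ESCs minus that in ESCs was called for 26 of 37 members, higher for 20 and lower for 6, against 21.3% higher and 18.0% lower among all 15605 genes tested. Genotype, cell line and separately made table coincide in this contrast, so their parts cannot be told apart. The median difference was 0.63 over the members and 0.11 over all genes, and 18 were higher and 6 lower after rescaling (2380 and 3408 of all genes, against 3323 and 2808 as deposited). A higher effect here is a less negative or more positive change, so a smaller fall or a rise for genes that fell in ESCs. All 4 transporters had the higher effect in p53 KO cells, namely Slc16a3 (1.85 ± 0.18), Slc2a3 (1.68), Slc16a1 (1.26) and Slc2a1 (0.48, and 0.23 with adjusted p = 0.0914 rescaled). So had 13 of 17 enzymes, with Aldoc (2.60 ± 0.33, adjusted p = 0.000381), Pfkp (2.08 ± 0.14, adjusted p = 1.67e-05), Gapdh (1.81 ± 0.16), Tpi1 (1.75 ± 0.19) and Aldoa (1.58 ± 0.10) at the top. Pdk1, among the regulators, had the higher effect too (1.96 ± 0.15, adjusted p = 2.55e-05). Only Ldhb and Hk1 of the enzymes had the lower effect in p53 KO cells, Ldhb by −2.59 ± 0.24 (adjusted p = 7.41e-05). Among hypoxia-response genes Bnip3 (1.54) and Egln3 (1.17) were higher, and Ndrg1 (−2.02), Ddit4 (−1.45) and Higd1a (−0.61), a mitochondrial protein induced by low oxygen, lower. Hk2 (0.20), Vegfa (0.49), Hif1a (0.12) and Bnip3l (0.07) did not pass. ESC and inner cell mass markers summed to 1839 to 1968 FPKM in treated and 2139 to 2250 FPKM in untreated p53 KO ESCs, and trophectoderm markers to 72.8 to 73.7 FPKM in treated and 39.8 to 40.1 FPKM in untreated p53 KO ESCs, and the difference was called higher for 9 of 10 tested ESC markers and lower for 6 of 9 tested trophectoderm markers. Fibroblast markers summed to 46.9 to 49.0 FPKM in treated and 15.7 to 19.5 FPKM in untreated p53 KO ESCs, with 4 of 10 at 0 in both libraries of each group. The part of these markers in the members' difference was not tested.

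**Figure D3:**
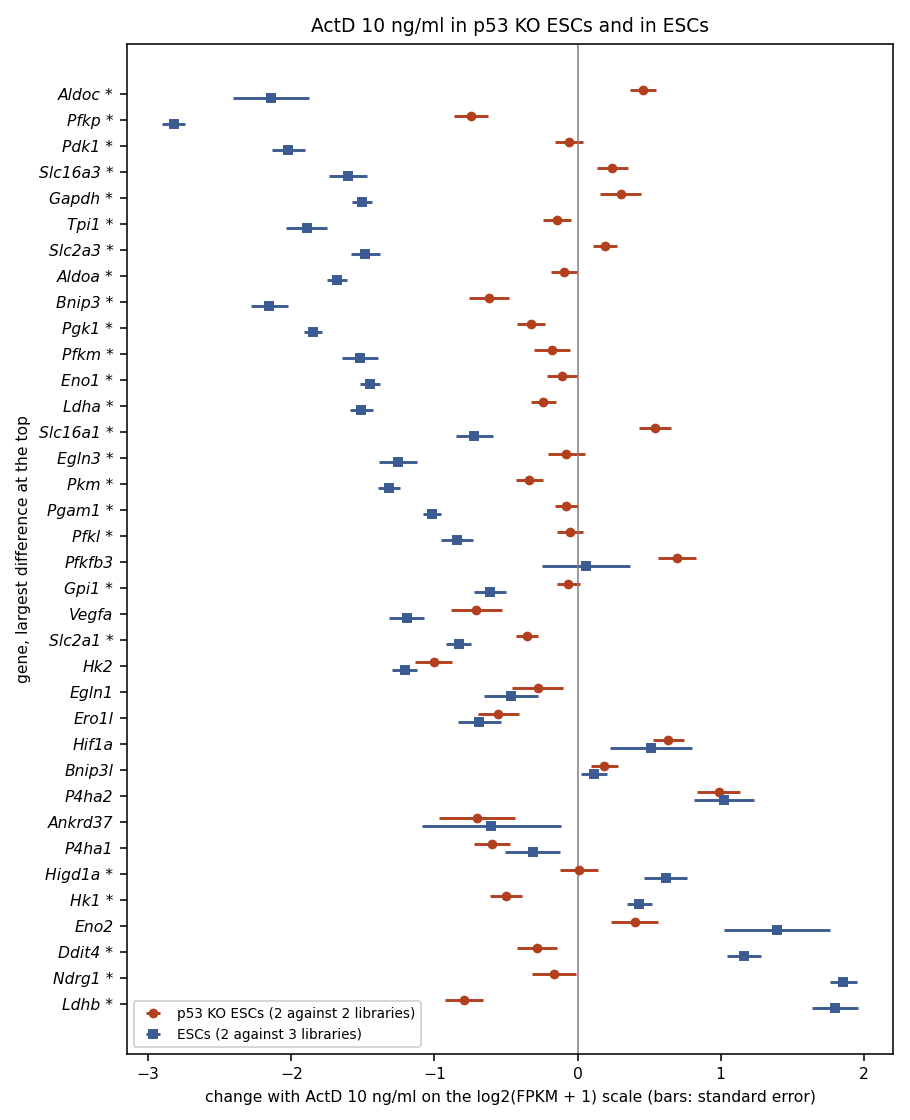
Change of each of the 36 members tested in both cell lines (all but Pfkfb4) with ActD at 10 ng/ml on the log2(FPKM + 1) scale in p53 KO ESCs (circles, 2 against 2 libraries) and in ESCs (squares, 2 against 3), with standard errors, and an asterisk where the difference had a limma adjusted p under 0.05. Aldoc, at the top, lies at 0.46 in p53 KO ESCs and −2.14 in ESCs, Pfkp at −0.75 and −2.82, and Ldhb, at the bottom, at −0.79 and 1.80.

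CX-5461 at 1 µM lowered 20 and raised 8 of 37 members in ESCs, against 28.9% lower and 32.9% higher among all 12966 genes tested. The median change was −0.34 over the members and 0.03 over all genes. Rescaled, 22 members were lower and 8 higher (4381 and 3836 of all genes, against 3748 and 4263 as deposited). Ldha fell to 75.2, 80.0 and 78.7 FPKM in CX-5461-treated ESCs, against 186, 207 and 199.9 FPKM in untreated ESCs (−1.33 ± 0.06, adjusted p = 2.44e-06). Slc16a3 fell to 7.69, 7.39 and 7.43 FPKM, against 17.2, 18.2 and 17.7 FPKM in untreated ESCs (−1.14 ± 0.06, adjusted p = 5.83e-06). Bnip3 fell to 9.99, 8.94 and 8.81 FPKM, against 18.7, 21.6 and 23.3 FPKM in untreated ESCs (−1.11 ± 0.09, adjusted p = 4.8e-05). None of the 3 overlapped between groups, and of all members 22 lay below and 8 above every untreated library. Of the 17 enzymes 13 fell, among them Pfkp (−1.30), Hk2 (−1.11), Eno1 (−1.08), Pkm (−1.03), Aldoa (−1.01), Gapdh (−0.93), Pgk1 (−0.89) and Tpi1 (−0.86). Slc16a1 (−1.06) and Pdk1 (−0.95) also fell.

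Ddit4 rose to 71.0, 72.8 and 73.9 FPKM in CX-5461-treated ESCs, against 19.6, 21.5 and 20.5 FPKM in untreated ESCs (1.77 ± 0.06, adjusted p = 8.13e-07). Ldhb rose to 28.8, 27.3 and 27.8 FPKM, against 10.6, 10.7 and 10.3 FPKM in untreated ESCs (1.33 ± 0.06, adjusted p = 2.25e-06). The A and B subunits of lactate dehydrogenase thus moved in opposite directions here. So they did with ActD and with CHX in ESCs, and with Ddx18 knockdown in EZH2 KO ESCs. In p53 KO ESCs with ActD at 10 ng/ml Ldhb fell (−0.79) and Ldha was at −0.24, and with knockdown in p53 KO ESCs Ldha fell and Ldhb was not called. Eno2 (1.14), Pfkfb4 (0.85), P4ha2 (0.73), Pfkfb3 (0.54) and Hk1 (0.38) rose, and Slc2a1 rose too, with means of 45.1 ± 2.34 FPKM in treated and 31 ± 1.91 FPKM in untreated ESCs (SD, n = 3 each). Vegfa was lower by a small amount (−0.34, adjusted p = 0.0396). Egln3 (−0.08), Bnip3l (−0.12) and Hif1a (0.01, and −0.08 rescaled) did not pass. Trophectoderm markers summed to 169 to 171 FPKM in treated and 16 to 17.8 FPKM in untreated ESCs, and ESC and inner cell mass markers to 768 to 865 FPKM in treated and 1774 to 1933 FPKM in untreated ESCs, and their part in the result was not tested.

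CHX at 10 µM lowered 29 and raised 5 of 36 tested members, against 19.8% lower and 33.2% higher among all 13257 genes tested. The median change was −0.99 over the members and 0.12 over all genes, and rescaled 30 members were lower and 3 higher (3470 and 3554 of all genes, against 2625 and 4401 as deposited). All 4 transporters fell. Slc2a1 fell to 14.4 and 14.4 FPKM in CHX-treated ESCs, against 87.8 and 94.6 FPKM in untreated ESCs (−2.58 ± 0.08, adjusted p = 0.000166), and Slc16a3 fell to 6.21 and 6.88 FPKM, against 31.8 and 33.9 FPKM in untreated ESCs (−2.17 ± 0.10, adjusted p = 0.000326). The enzymes differed in the size of their changes. Pfkp fell to 15.0 and 12.2 FPKM in CHX-treated ESCs, against 72.4 and 73.6 FPKM in untreated ESCs (−2.35 ± 0.11), whereas Ldha was at 320 and 341 FPKM in treated and 491 and 480 FPKM in untreated ESCs (−0.55 ± 0.06), and Pkm (−0.45), Gapdh (−0.35) and Eno1 (−0.29) had smaller changes. Ldhb rose (0.98 ± 0.08, adjusted p = 0.00111), and Hk1 and Pfkm did not pass.

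With CHX 11 of the 13 hypoxia-response genes fell. Bnip3 fell to 1.46 and 1.85 FPKM in CHX-treated ESCs, against 29.5 and 27.3 FPKM in untreated ESCs (−3.47 ± 0.13, adjusted p = 0.000224). Ndrg1 fell to 2.26 and 2.09 FPKM, against 13.7 and 13.9 FPKM in untreated ESCs (−2.22 ± 0.12, adjusted p = 0.000449). Egln3 fell to 1.13 and 1.82 FPKM, against 8.90 and 7.02 FPKM in untreated ESCs (−1.86 ± 0.21, adjusted p = 0.00233). No treated library of these genes reached an untreated one, and of all members 31 lay below and 5 above both untreated libraries. Ero1l (−1.73), Ankrd37 (−1.64), Bnip3l (−1.08), P4ha1 (−1.04), Vegfa (−0.87) and Egln1 (−0.83) fell, and Hif1a (0.46, adjusted p = 0.0314, and 0.0944 rescaled) and Ddit4 (0.61) rose. Pfkfb3 rose to 13.0 and 14.0 FPKM in CHX-treated ESCs, against 3.28 and 2.62 FPKM in untreated ESCs (1.88 ± 0.14, adjusted p = 0.000821). Tpi1 (−1.37), Pdk1 (−1.56), Hk2 (−1.46) and Pgk1 (−1.19) fell. Trophectoderm markers summed to 25.3 to 30.3 FPKM in treated and 37.6 to 40.8 FPKM in untreated ESCs, with 2 of 4 tested called lower, and ESC and inner cell mass markers to 1447 to 1469 FPKM in treated and 2473 to 2534 FPKM in untreated ESCs, and their part in the result was not tested. With 1 treated library left out, 19 or 20 members were called.

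The effect of CX-5461 minus that of CHX was called for 29 of 37 members, 23 of them higher and 6 lower, against 23% higher and 25.5% lower of 15839 genes tested. These are different tables with separate untreated cells, and the doses are of different agents. Slc2a1 differed most (3.11 ± 0.10, adjusted p = 2.98e-07), followed by Bnip3 (2.36 ± 0.15), Ndrg1 (2.34 ± 0.13), P4ha2 (1.83 ± 0.18) and Egln3 (1.79 ± 0.22). The opposite sign, a more negative or less positive change with CX-5461, was called for Pfkfb3 (−1.34), Eno1 (−0.79), Ldha (−0.78), Pkm (−0.58), Gapdh (−0.58) and Hif1a (−0.46). Of 13 hypoxia-response genes 10 were higher and 1 lower, and of 17 enzymes 8 were higher and 4 lower.

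**Figure D4:**
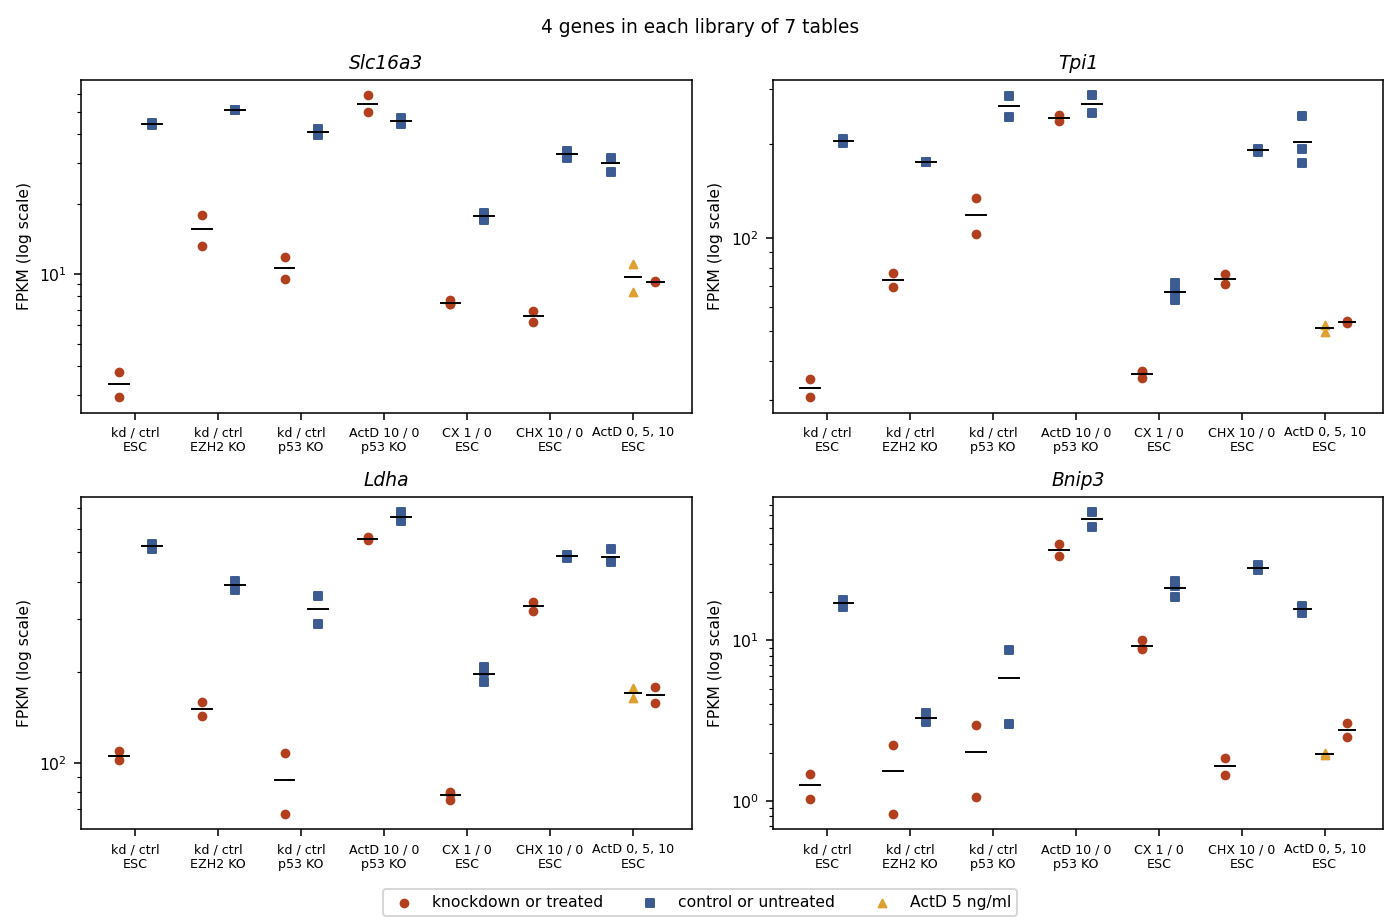
FPKM of Slc16a3, Tpi1, Ldha and Bnip3 on log axes in every library of 7 tables, with knockdown or treated libraries (circles) left of their controls (squares), the ActD doses from 0 to 10 ng/ml at the right (5 ng/ml as triangles), and bars at group means. In p53 KO ESCs with ActD the circles lie near the squares for Slc16a3, Tpi1 and Ldha and below them for Bnip3 (33.6 and 39.7 against 51.0 and 62.7 FPKM), and in the other tables the circles lie below the squares, with Bnip3 in the p53 KO knockdown table nearly touching at 2.99 FPKM.

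Over the 8 tested comparisons, Pkm was called lower in 7, and Pfkp, Tpi1, Eno1, Ldha and Slc16a3 in 6. Pfkfb3, Pfkfb4, Eno2, Hif1a and Ddit4 were called lower in none. Not all of the genes named here were tested in all 8, since Pfkfb4 was tested in 5, and Pfkfb3, Eno2, Ddit4, Ldhb, Pfkp, Ldha and Slc16a3 in 7. Such counts were not made over all genes. Ldhb and Ddit4 were called higher in 5 comparisons and Eno2 and P4ha2 in 4. The ActD doses count as 2 of the 8 and share their untreated libraries. Gapdh, Aldoa, Ldha, Pgk1, Tpi1, Pgam1, Eno1 and Pkm have pseudogenes or near copies, and no source used here gives how reads were split among copies, so their levels are uncertain.

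Lists of neighbouring pathways are given by their counts, and no test compared them with the 37 genes. Other isozymes and regulators of glycolysis had 7 lower and 4 higher of 20 tested with ActD at 10 ng/ml (9 and 4 rescaled), 5 lower and 5 higher of 17 with CX-5461 (5 and 4 rescaled), and 5 lower and 7 higher of 21 with CHX (6 and 7 rescaled). Galk1, galactokinase, averaged 7.80 ± 2.73 FPKM with ActD at 10 ng/ml (SD, n = 2) and 37.3 ± 5.25 FPKM untreated (n = 3), and Pfkfb2, a further regulator of phosphofructokinase, averaged 10.2 ± 1.49 FPKM with ActD at 10 ng/ml and 2.56 ± 0.388 FPKM untreated. None of 19 tested genes of this list was called with knockdown in EZH2 KO ESCs by limma (3 at an unadjusted p under 0.05) and none of 18 in p53 KO ESCs (5 unadjusted, and 1 called lower rescaled). Hypoxia-response genes outside the set had 8 lower and 15 higher of 30 with ActD at 10 ng/ml (12 lower and 9 higher rescaled), and 13 lower and 5 higher of 30 with CHX (13 and 4 rescaled), where the adenylate kinase gene Ak4 averaged 1.80 ± 0.831 FPKM in treated and 10.4 ± 0.950 FPKM in untreated ESCs (SD, n = 2 each). Regulators of the HIF pathway had 9 lower and 2 higher of 15 with CX-5461 (11 and 2 rescaled), and 1 called of 15 with knockdown in p53 KO ESCs, Epas1, the HIF-2 alpha gene, at 5.72 ± 1.52 FPKM with knockdown and 16.4 ± 0.773 FPKM in controls.

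The pentose phosphate pathway, which branches off after hexokinase, had 5 higher and 0 lower of 9 tested with CHX as deposited (5 higher and 2 lower rescaled), against 33.2% higher and 19.8% lower of all genes, with Rpe (ribulose phosphate epimerase) at 22.1 ± 0.659 FPKM in treated and 6.56 ± 0.119 FPKM in untreated ESCs. Shpk, the sedoheptulose kinase gene, averaged 0.293 ± 0.171 FPKM untreated, 9.97 ± 0.353 FPKM with ActD at 5 ng/ml and 17.5 ± 1.04 FPKM at 10 ng/ml. Genes of pyruvate dehydrogenase and the citric acid cycle had 11 lower and 5 higher of 28 with ActD at 10 ng/ml (15 and 4 rescaled) and 4 lower and 11 higher of 28 with CHX (5 and 8 rescaled). Pdha1, the catalytic subunit of pyruvate dehydrogenase, averaged 14.9 ± 0.0379 FPKM with ActD at 10 ng/ml and 52.9 ± 9.17 FPKM untreated. In knockout embryos 4 of 26 of these genes were called lower, against 4.55% of all genes, and 1 of the 26 after rescaling. Genes of gluconeogenesis and glycogen breakdown had 4 higher and 1 lower of 10 tested with ActD at 5 ng/ml (3 and 2 rescaled), 3 higher and 2 lower of 10 at 10 ng/ml (3 and 3 rescaled), and 3 higher and 2 lower of 5 with CX-5461 (3 and 2 rescaled). Their changes ran between −2.85 and 4.82 with ActD at 5 ng/ml, between −1.99 and 4.74 at 10 ng/ml and between −1.91 and 3.89 with CX-5461. Pck2, the mitochondrial phosphoenolpyruvate carboxykinase, was the lowest and Fbp2 the highest in each. Fbp2 and Fbp1, the fructose bisphosphatases that run a step of glycolysis backwards, rose with ActD, with Fbp2 at 1.18 ± 0.235 FPKM untreated, 60.4 ± 0.572 FPKM at 5 ng/ml and 57.2 ± 2.33 FPKM at 10 ng/ml. With CX-5461, Fbp2 averaged 22.5 ± 1.63 FPKM in treated and 0.597 ± 0.279 FPKM in untreated ESCs (3.89 ± 0.14, adjusted p = 1.2e-06).

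**Figure D5:**
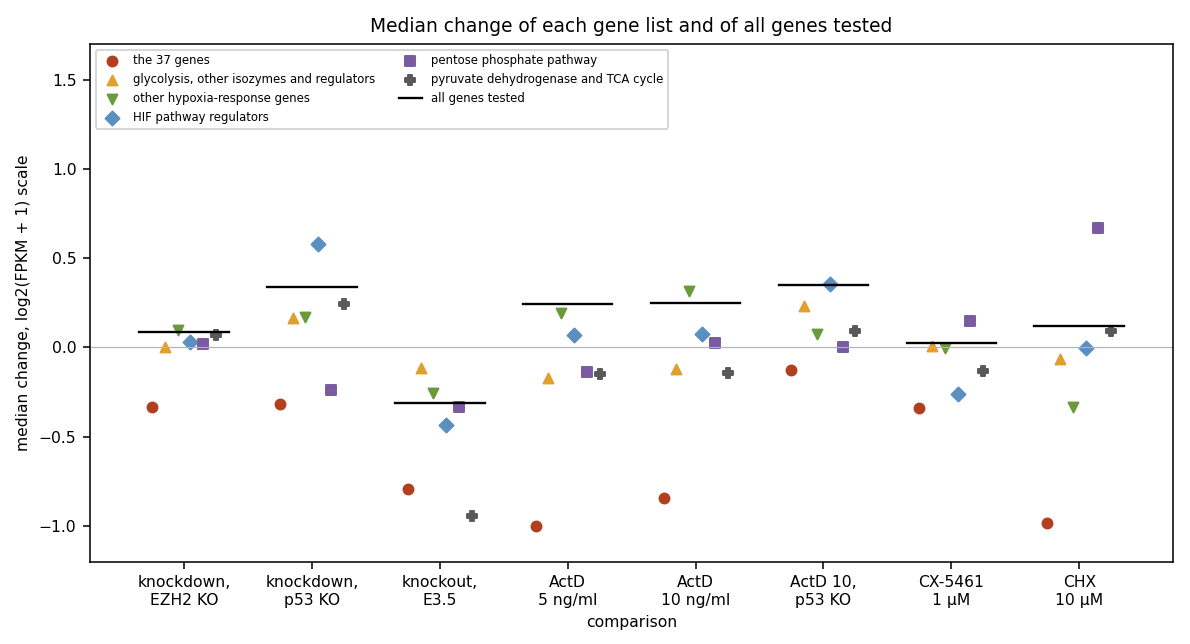
Median change on the log2(FPKM + 1) scale of the 37 members and of 5 other gene lists in each tested comparison, with a bar at the median of all genes tested. The members' median lies below the bar in all 8 comparisons, from −1.0 with ActD at 5 ng/ml to −0.13 with ActD in p53 KO ESCs, and in embryos the citric acid cycle list lies lower still.

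RNA regions bound by DDX18 were listed from 2 CLIP libraries and 2 tandem affinity purification (TAP) libraries of ESCs with FLAG-Biotin DDX18, on mm10. Regions inside members were 2 of 880 and 5 of 939 in the CLIP lists, and 1 of 635 and 3 of 741 in the TAP lists (0.227%, 0.532%, 0.157% and 0.405%). All but 1 lay in Pkm by position. Of the 3 in the TAP list of 741 regions, 1 (chr9:59679201-59679300) was on the minus strand, opposite to Pkm. A region at the end of Pkm, in the untranslated part of its last exon (exon 11 of 11, in 1 CLIP list at chr9:59678901-59679000), appeared in all 4 lists with the authors' scores of 17.5 and 22 in CLIP and 11 and 9.5 in TAP. A region in exon 4 of Pkm, at chr9:59668501-59668600, appeared in 1 CLIP and 1 TAP list with scores of 15.0 and 10.0. The region outside Pkm was in exon 3 of Aldoa, at chr7:126797601-126797700, in 1 CLIP list with a score of 11. By rank of score the Pkm end region stood at 517 and 454 in CLIP and 491 and 670 in TAP, so in the middle or lower part of each list. Exons of 159 and 176 protein-coding genes held a region in the CLIP lists and exons of 71 and 88 genes in the TAP lists. Pkm is among the members with the highest level in ESCs, and whether its level bears on being listed was not tested.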

How the data were processed

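Expression of 37 poly(A) RNA-seq libraries was read from 8 tables of FPKM values that the authors deposited. CASAVA and TopHat2 2.0.11 and the builds mm9 and mm10 stand in the submitters' processing notes, without roles, and no source used here names the counter. Mapped read counts of 19 libraries, deposited by the authors beside the FPKM values, were used for depth only. The 2 CLIP and 2 TAP region lists carry the authors' score per region, and per the file headers their annotation came from annotatePeaks.pl with mm10. The DDX18 ChIP lists, which the plan had included, were not used here, because they name neither a build nor genes.

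Members and gene lists were chosen with earlier results of these data known. A symbol listed more than once was represented by its row with the highest mean. Within a table, log2(FPKM + 1) was fitted with limma 3.58.1 (R 4.3.3) with a variance trend, over genes that reached 1 FPKM in at least the number of libraries of the smallest group. Tests were two-sided, adjusted by the Benjamini-Hochberg method over all genes tested, with a threshold of 0.05. Differences between tables were interaction contrasts with 1 mean per group, since each table was normalized separately. Fold changes on this scale understate those of low genes. No count model was used, since FPKM values are not counts. The procedure was tested on simulated data, with changes set only in genes above the lowest levels and independent noise for each gene. That run does not cover low genes or shifts shared by a library, and it does not check the calls given here. Genes named throughout were Slc16a3, Bnip3, Tpi1 and 1 or more members per step (Pdk1, Ldha, Pgk1, Hk2, Slc2a1, Egln3, Hif1a and Vegfa), with up to 6 called members of the largest change and 2 uncalled members of the highest level in each comparison; further members are named by role. Alternatives were a pseudocount of 0.1, no filter, a filter at 5 FPKM, rescaling by each library's median ratio to its table's geometric mean, no variance trend, a replicate block and leaving out each library. No 2 libraries held the same values. In the promoters, the words were searched on both strands.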

Additional observations from a re-analysis of the deposited data

Results flagged for a closer look

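The knockdown effect differed between EZH2 KO and p53 KO ESCs (EZH2 KO minus p53 KO, on the log2(FPKM + 1) scale, limma interaction contrast at an adjusted p under 0.05) for Slc2a3 (−1.67), Pdk1 (1.78) and Ddit4 (1.78). Leaving out 1 library gave 0 to 4 members called, and no filter or the replicate block gave 0 (6 and 7 at an unadjusted p under 0.05 by limma).

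The effect of ActD at 10 ng/ml differed between p53 KO ESCs and ESCs (p53 KO minus ESC, same scale and test) for 26 members. Among transporters the difference was 0.48 for Slc2a1, 1.68 for Slc2a3, 1.26 for Slc16a1 and 1.85 for Slc16a3. Among enzymes it was −0.93 for Hk1, 0.55 for Gpi1, 0.79 for Pfkl, 1.34 for Pfkm, 2.08 for Pfkp, 1.58 for Aldoa, 2.60 for Aldoc, 1.75 for Tpi1, 1.81 for Gapdh, 1.52 for Pgk1, 0.94 for Pgam1, 1.34 for Eno1, 0.98 for Pkm, 1.27 for Ldha and −2.59 for Ldhb. The regulators Pfkfb4 and Pdk1 had −1.95 and 1.96. Of the hypoxia-response genes, Bnip3 had 1.54, Egln3 1.17, Ndrg1 −2.02, Ddit4 −1.45 and Higd1a −0.61. After rescaling, Slc2a1 (0.23, adjusted p = 0.0914) and Gpi1 (0.30, adjusted p = 0.0808) no longer passed.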

How the results depend on the processing

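The number of members called depended on the processing in the comparisons that follow, which had 2 libraries a group. Not every comparison of that size did so, as with CHX 34 members were called, and rescaled 30 were lower and 3 higher. With knockdown in EZH2 KO ESCs 15 members were called, 2 with no filter, 5 with no variance trend and 9 with the replicate block. With knockdown in p53 KO ESCs 5 were called, 0 with a pseudocount of 0.1, with no filter, with no variance trend or with the replicate block (17 or 18 at an unadjusted p under 0.05 by limma), and 8 with a filter at 5 FPKM. In embryos 3 were called, 0 with a pseudocount of 0.1 or no filter (9 and 10 unadjusted), 1 rescaled and 5 with the replicate block. With ActD in p53 KO ESCs 15 were called, 6 with no filter and 23 rescaled. The difference between both knockdown effects was called for 3 members, 0 with no filter or with the replicate block (6 and 7 unadjusted) and 1 with no variance trend. The median difference of the listed members with knockdown in ESCs was −0.95, and −1.24 rescaled. In each case the cause was not tested.

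Leaving out 1 library gave 0 to 0 members called in the knockdown tables of EZH2 KO and p53 KO ESCs, in embryos and with ActD in p53 KO ESCs. It gave 24 to 31 with ActD at 5 ng/ml, 27 to 32 at 10 ng/ml, 0 to 10 for the dose difference, 26 to 28 with CX-5461, 19 to 24 with CHX, 26 to 29 for CX-5461 minus CHX, 0 to 4 for EZH2 KO minus p53 KO and 23 to 26 for p53 KO minus ESC. Where 1 library was left in a group, it was assumed to vary like the others.

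Whether replicate numbers pair the samples is not settled by these data. Deviations of same-numbered libraries from their group means correlated at −0.0487 (EZH2 KO), −0.256 (p53 KO) and 0.026 (embryos). They correlated at 0.0366 to 0.0531 (CX-5461) and −0.0136 (ESC knockdown). With 2 libraries a group both deviations mirror each other, so each such table gives a single value, which cannot show whether samples were paired. The replicate block left the CX-5461 count at 28. Crossed numbers in the p53 KO knockdown table, an alternative chosen after seeing the data, called 8 members. For the ActD, p53 KO ActD and CHX tables alone, the block could not be fitted. No paired analysis was possible because the columns of these 3 tables carry no replicate numbers.

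Of the changes of named members, a pseudocount of 0.1 left 169 on the same side of the threshold, 11 lost their call and 0 reversed. Rescaling left 153 on the same side, ended 6 calls, added 11 and reversed 10: Bnip3l with ActD at 10 ng/ml (−0.0385), Bnip3l, Hif1a and Hk2 in the p53 KO minus ESC difference (−0.17, −0.11 and −0.0376), Gapdh with ActD (−0.11) and with knockdown (−0.37) in p53 KO ESCs, Hif1a with CX-5461 (−0.077), Slc16a3 with ActD in p53 KO ESCs (−0.16), Tpi1 in EZH2 KO minus p53 KO (0.21) and Vegfa with knockdown in p53 KO ESCs (−0.15). Over all fits without 1 library, 962 values kept their side, 158 lost their call, 7 gained one and 32 reversed. With knockdown in p53 KO ESCs the ranges were −0.58 to 0.12 for Egln3, −0.0693 to 0.15 for Gapdh, −2.53 to 0.56 for Pgk1, −0.27 to 0.26 for Slc2a1 and −0.95 to 1.44 for Vegfa. In EZH2 KO minus p53 KO they were −0.34 to 0.93 for Bnip3, −1.21 to 1.88 for Pgk1, −0.12 to 0.40 for Pkm, −0.0113 to 0.41 for Slc16a3, −0.27 to 0.11 for Tpi1 and −1.76 to 0.63 for Vegfa. For the ActD dose difference they were −0.11 to 0.0591 for Ldha, −0.13 to 0.0033 for Pdk1, −0.23 to 0.13 for Slc16a3 and −0.0379 to 0.25 for Vegfa. Others were Pdk1 in EZH2 KO knockdown (−0.0811 to 0.0086), Bnip3l in embryos (−0.13 to 0.63), Egln3 with ActD in p53 KO ESCs (−0.17 to 0.0118) and with CX-5461 (−0.14 to 0.0171), Hif1a with CX-5461 (−0.0513 to 0.0506) and in p53 KO minus ESC (−0.19 to 0.29), and Aldoa in CX-5461 minus CHX (−0.0133 to 0.0812).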

Other observations

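A few members lay on opposite sides of their controls in ESCs and in KO ESCs with Ddx18 knockdown. These differences between cell lines were not tested, since the ESC comparison is a description. Higd1a, a mitochondrial protein induced by low oxygen, was at 0.29 in EZH2 KO ESCs and −0.83 in ESCs on the log2(FPKM + 1) scale. Hexokinase Hk1 was at 0.88 in p53 KO ESCs and −0.49 in ESCs, and Ddit4 at −0.90 in p53 KO ESCs and 1.12 in ESCs. None of these changes in KO ESCs was called (limma adjusted p of 0.374 for Higd1a and 0.084 for Hk1). Members whose groups overlapped, such as Gapdh and Vegfa in p53 KO ESCs, are not among them.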
